A study of Mus musculus with 35 samples.

Results

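Late 2-cell mouse embryos injected with mRNA of a dominant negative serum response factor (SRF-LOF embryos) were compared across all genes and repeats with embryos injected with a scrambled antisense oligonucleotide (control embryos). The members were taken by title: 7 SRF-LOF and 9 control embryos, 16 of the 35 single embryos of the series. All were F1 embryos of the cross C57BL/6JxCBA/H. The SRF-LOF zygotes received mRNA of the construct named SRF-DN and no oligonucleotide, and the control zygotes received the oligonucleotide named SCR_ASO and no mRNA. Injection was 24 h after hCG, given to induce ovulation, and embryos grown in KSOM were taken singly at 48 h. No group received a control mRNA, so dominant negative SRF, the injection of mRNA as such and the absence of the oligonucleotide cannot be told apart. The other 19 embryos, 9 DUX-LOF embryos with an oligonucleotide that targets DUX and 10 double-LOF embryos with this and SRF-DN mRNA, entered the same fit to give its estimate of the spread and are not described. Litters, batches and injection days are not in the labels, so p-values cover only the variation among these embryos, of which each gave 1 library.

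SRF is a transcription factor that binds the CArG box, a short AT-rich DNA element between a pair of C and a pair of G bases. With cofactors of the myocardin family it drives genes of the actin cytoskeleton and cell contacts, and with ternary complex factors it drives immediate early genes. A dominant negative form is made to occupy the place of the endogenous protein without activating its targets. The mouse 2-cell stage is when the major wave of zygotic transcription starts, with the retrotransposon MERVL and its promoter MT2_Mm among the RNAs it makes, while RNAs stored in the oocyte are being degraded.

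Smart-seq+5' libraries give fragments from inside transcripts (internal reads) and from their 5' ends. Internal gene counts ran from 844598 to 1619539 in SRF-LOF embryos and from 943657 to 2039475 in control embryos, and 5' gene counts from 818695 to 1908409 and from 983915 to 1524595. Between 15558 and 18619 genes were detected in internal reads of SRF-LOF embryos and between 16028 and 19040 in control embryos. Of 16 measures per library, which were depth, genes detected, the repeat share, the mitochondrial share, the ratio to ERCC spike-in RNA, Srf, MERVL-int and the summed MT2_Mm rows in each read class, only Srf passed the threshold (two-sided exact permutation tests, next smallest adjusted p = 0.895). Markers of the late 2-cell stage were present in every embryo: the 12 marker genes that could be matched summed to 1276 to 5910 CPM (counts scaled to the gene total of the library) in SRF-LOF embryos and 521 to 7345 CPM in control embryos. Of 18 cumulus and granulosa cell markers 1 passed the filter on low counts and 7 had no count in any of the 16 embryos, of 13 sperm markers 2 passed and 3 had none, and of 12 blood cell markers 4 passed and 5 had none. Summed levels of these 3 marker lists were 11.8 to 55.5, 89.1 to 262 and 21.8 to 133 CPM in SRF-LOF embryos, against 8.65 to 34.6, 134 to 262 and 34.5 to 198 CPM in control embryos, and no member passed the test. Their part in the results was not tested.

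Reads on Srf itself (ENSMUSG00000015605.6, GRCm38 chr17:46548329-46556175, minus strand) separated every embryo of the 2 groups. In internal reads Srf stood at 181, 805, 443, 215, 288, 97.0 and 374 CPM in SRF-LOF embryos 3 to 9. In control embryos its lowest, median and highest levels were 11.7, 20.2 and 41.2 CPM. The lowest SRF-LOF embryo, number 8, was above the highest control embryo, number 1. The difference was 3.79 ± 0.42 on the log2 scale (edgeR quasi-likelihood test with Benjamini-Hochberg adjustment over 11940 genes, adjusted p = 7.7e-07). Throughout, ± for log2 values is a standard error derived from the log2 difference and the F statistic of that test. A two-sided exact permutation test of log2 Srf CPM over the 16 embryos gave p = 8.74e-05, the smallest that 11440 regroupings allow. In 5' reads Srf was higher by 4.77 ± 0.46 (adjusted p = 1.1e-08), with 190 to 1417 CPM in SRF-LOF embryos and 9.70 to 50.5 CPM in control embryos. Injected and embryonic Srf RNA share these reads and were not separated. The microRNA gene Mir6976, which lies in the Srf locus outside its annotated exons on the same strand (chr17:46553827-46553889), had 31 counts in 5' reads of the SRF-LOF embryos together and 0 in the control embryos.

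**Figure D1:**
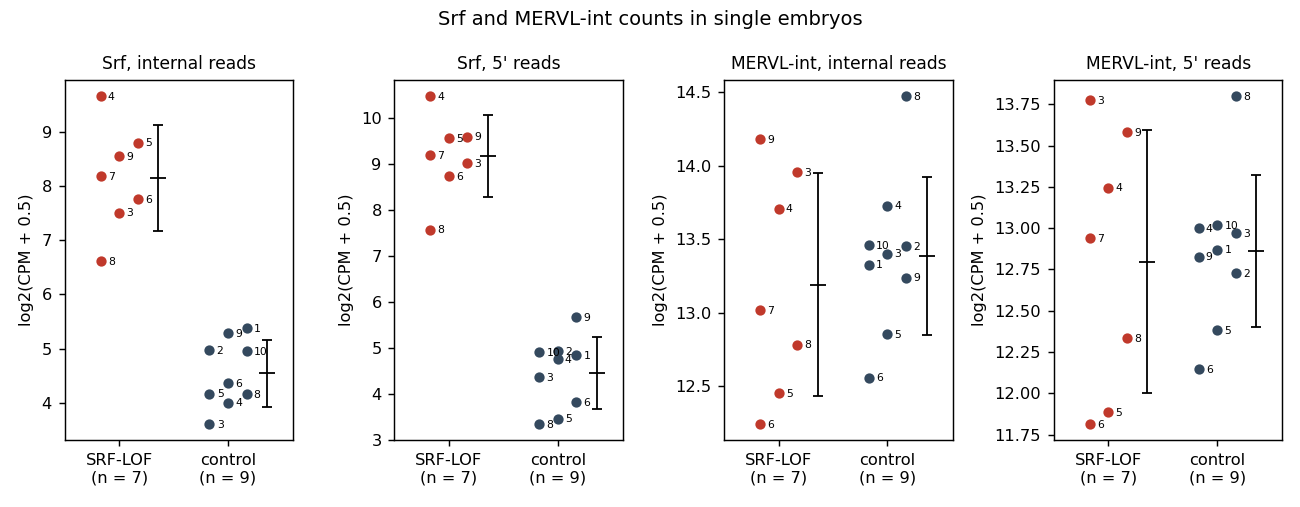
Levels of Srf and of MERVL-int in single embryos, as log2(CPM + 0.5) in internal and 5' reads. Points are embryos with their number, SRF-LOF left of control, and bars are the mean ± SD. Every SRF-LOF embryo lies above every control embryo for Srf, and the groups overlap for MERVL-int, which differed by -0.12 ± 0.35 on the log2 scale in internal reads.

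Across all genes 212 of 11940, 1.78%, passed an adjusted p of 0.05, 139 of them higher (1.16%) and 73 lower (0.611%) in SRF-LOF embryos. Before adjustment 2817 genes, 23.6%, had a p under 0.05, with 1256 higher and 1561 lower. The 139 higher genes had a median log2 difference of 1.52 (0.88 to 3.79) and a median level of 88.1 CPM over the 16 embryos, and 23 of them were at least 4-fold higher. The 73 lower genes had larger differences and lower levels, with a median of -2.25 (-6.52 to -1.08), a median level of 21.5 CPM and 46 at least 4-fold lower. Over all genes tested the median was -0.10 and the median level 28.2 CPM. Protein-coding genes made up 127 of the 139 and 70 of the 73.

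The number of calls rested on the other embryos in the fit, on the scaling and on single embryos. With only the 7 SRF-LOF and 9 control embryos in the fit, 1 gene was called, Srf, and with scaling to the ERCC spike-ins again 1, Srf. Scaling to a list of 74 maternal oocyte genes left 21, 4 higher and 17 lower, which is 19% higher against 65.6% above. These 2 scalings moved the median of all genes to -0.45 and -0.66. With 1 embryo left out, between 8 genes (without SRF-LOF 4) and 1789 genes (without SRF-LOF 3) were called, and DESeq2 called 881. Fewer than 40 genes were called without SRF-LOF 6 (14), SRF-LOF 7 (12), control 1 (39) or control 6 (34), and over 300 without SRF-LOF 8 (1202), control 2 (771) or control 9 (340). The other counts were 79 without SRF-LOF 5, 117 without SRF-LOF 9, 50 without control 3, 119 without control 4, 83 without control 5, 245 without control 8 and 86 without control 10. No gene of the 212 changed its direction in any of the 16 fits, 39 were called in at least 12 of them and 7 in all 16.

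**Figure D2:**
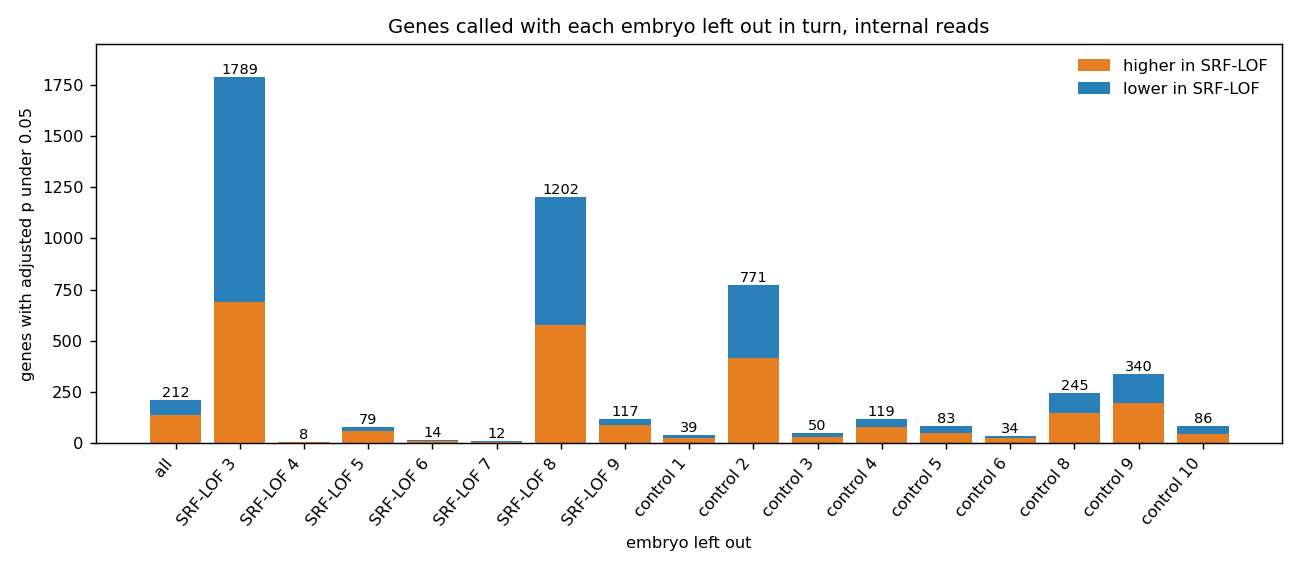
Genes with an adjusted p under 0.05 in the fit of all embryos and in 16 fits that each left out 1 embryo, SRF-LOF embryos left of control embryos. Bars are counts stacked by direction, with the total on top. The total ran from 8 without SRF-LOF 4 to 1789 without SRF-LOF 3, against 212 with all embryos.

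Single embryos were spread along one axis that the groups did not fully share. The first principal component of the 16 embryos over the tested genes held 47.1% of the variance. Its scores were 114.9, 77.8, 118.7, 132.8 and 105.2 in SRF-LOF embryos 4, 5, 6, 7 and 9, and -87.9 and -60.9 in SRF-LOF embryos 3 and 8. In control embryos they ran from -135.9 to 91.0, and control 2 and control 9 held the highest values, 91.0 and 53.4. SRF-LOF 3 and 8 thus lay among the control embryos and control 2 among the SRF-LOF embryos. In internal reads SRF-LOF 8 and 3 had the lowest Srf levels of their group, 97.0 and 181 CPM, followed by SRF-LOF 6 with 215 CPM. In 5' reads the lowest were SRF-LOF 8 with 190 CPM and SRF-LOF 6 with 425 CPM, and SRF-LOF 3 stood at 518 CPM.

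The same embryos stood apart in the called genes, which were chosen on these embryos and are given as a description. Of the 139 higher genes, SRF-LOF embryos 4, 5, 6, 7 and 9 were above every control embryo in 139, 125, 132, 129 and 98, and SRF-LOF 3 and 8 in 7 and 17. Control 2 was above all other control embryos in 75 of the 139, and no other control embryo was in more than 20. Of the 73 lower genes, SRF-LOF 3 and 8 were below every control embryo in 10 and 12, the other SRF-LOF embryos in 34 to 44, and control 2 was below all other control embryos in 27.

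**Figure D3:**
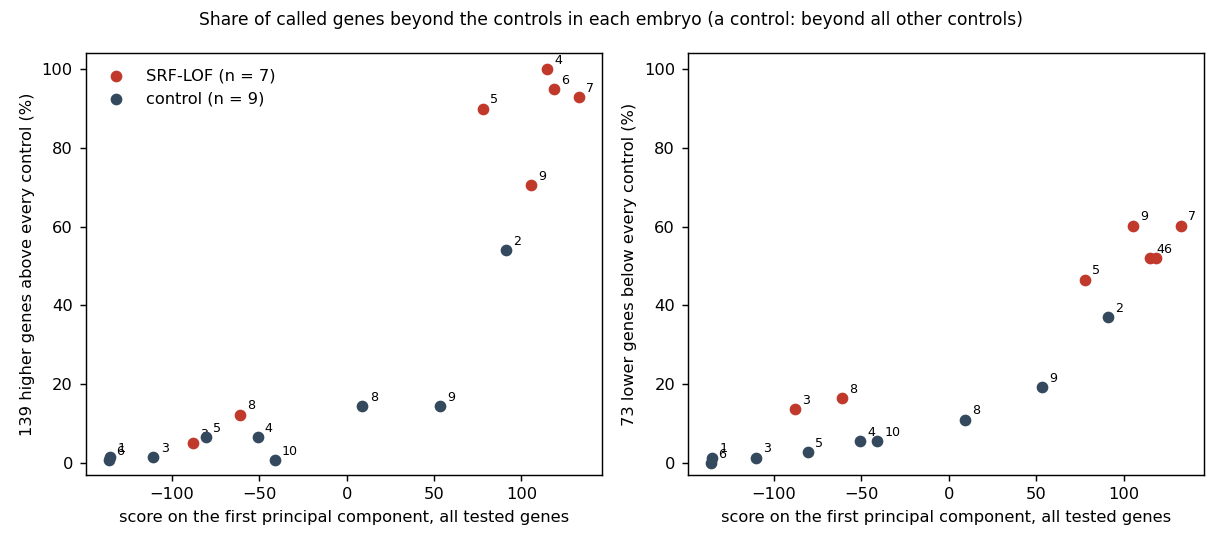
Share of the called genes in which each embryo lay beyond every control embryo (a control embryo: beyond every other control embryo), against its score on the first principal component of all tested genes. Points are embryos with their number, and the left and right plots show the 139 higher and the 73 lower genes. SRF-LOF 3 and 8 lie with the control embryos, and control 2 lies near the other SRF-LOF embryos.

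Of all genes tested, 5 (0.0419%) were above and 4 (0.0335%) below every control embryo in every SRF-LOF embryo. Those above were Srf, Pitpnm2, a phosphatidylinositol transfer protein gene, Gm46426, annotated as a processed pseudogene and not tested in 5' reads, Crybg1 and Sh3rf1. Crybg1 and Sh3rf1 did not pass the test (1.26 ± 0.38, adjusted p = 0.067, and 0.53 ± 0.24, adjusted p = 0.18). Those below were Alas1, the rate-limiting enzyme of heme synthesis, Srp19, a protein of the signal recognition particle, Kbtbd13 and Slc41a1, a magnesium transporter that just missed the threshold (-0.93 ± 0.26, adjusted p = 0.050). Kbtbd13 held 1 count in the SRF-LOF embryos together and 84 in the control embryos, 61.4-fold lower with a 95% counting interval of 10.7 to 2454.

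Besides Srf, 6 genes were called in all 16 fits with 1 embryo left out. Alas1 (ENSMUSG00000032786.16, chr9:106233455-106248654, minus strand) stood at 29.9, 6.78, 6.61, 11.4, 9.38, 28.7 and 8.86 CPM in SRF-LOF embryos 3 to 9, against a lowest, median and highest level of 30.4, 89.2 and 150 CPM in control embryos. Its highest SRF-LOF embryos, 3 and 8, came within 2 CPM of control 10, the lowest control embryo, and the difference was -2.49 ± 0.40 on the log2 scale (adjusted p = 0.0017). Srp19 stood at 1.32, 7.82 and 12 CPM (lowest, median, highest) in SRF-LOF embryos, against 12.4, 33.4 and 57.3 CPM in control embryos. The groups were next to each other without overlap, and the difference was -2.19 ± 0.42 (adjusted p = 0.015). Slc38a10, of a family of amino acid transporters, stood at 0, 0.99 and 5.93 CPM against 3.71, 15.1 and 27.4 CPM, with SRF-LOF 4 above control 2 (-3.16 ± 0.63, adjusted p = 0.017).

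Among the 3 that were higher, Pitpnm2 stood at 12, 39.0, 15.9, 17.7, 39.9, 11.1 and 25.6 CPM in SRF-LOF embryos 3 to 9, against 1.59, 4.69 and 9.89 CPM (lowest, median, highest) in control embryos. All SRF-LOF embryos were higher (2.11 ± 0.39, adjusted p = 0.0095), although in 5' reads the difference of 1.27 ± 0.42 did not pass (adjusted p = 0.078). Dnajc11, a J-domain protein of mitochondria, stood at 105, 390, 279, 450, 362, 86.0 and 150 CPM in SRF-LOF embryos 3 to 9, against 46.6, 61.0 and 183 CPM in control embryos. SRF-LOF 4, 5, 6 and 7 were above all control embryos, and SRF-LOF 3, 8 and 9 were below control 2 (1.75 ± 0.32, adjusted p = 0.0075). Oas1d, an oocyte member of the oligoadenylate synthetase family, was the third (2.37 ± 0.40, adjusted p = 0.0033), with SRF-LOF 3 and 8 inside the control range and the other 5 above it.

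**Figure D4:**
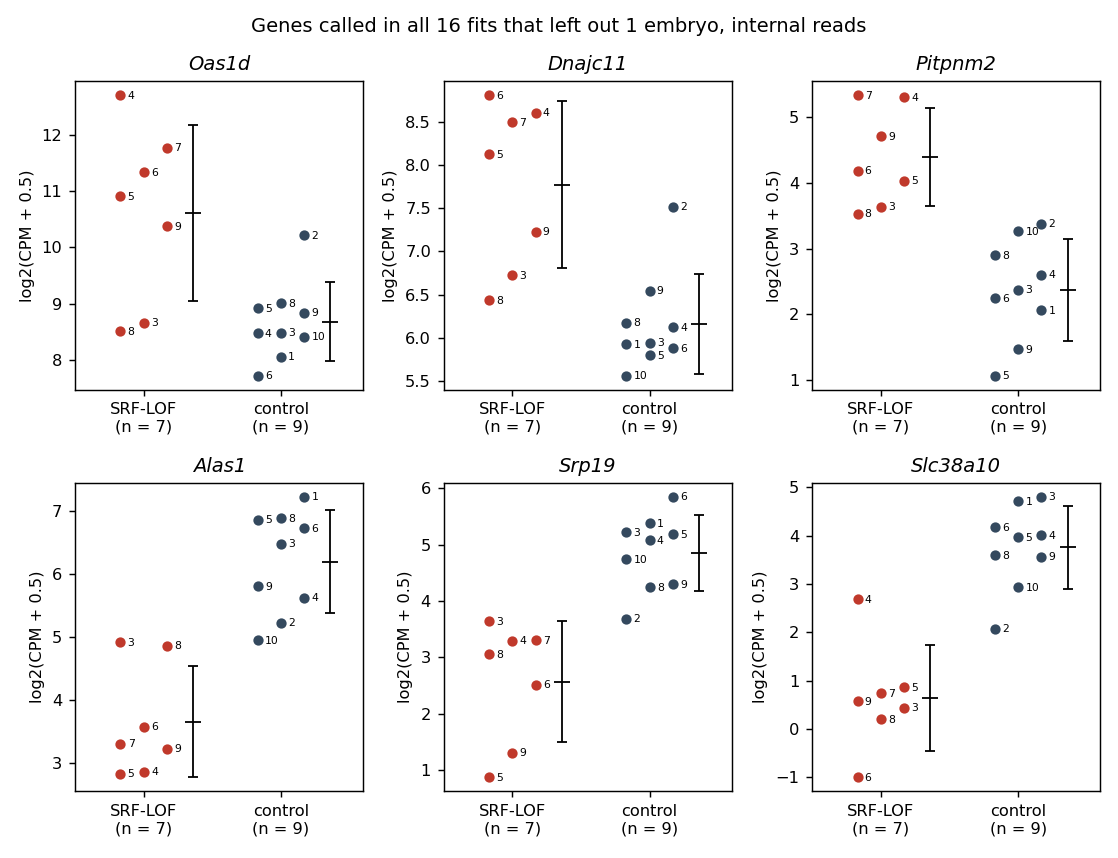
Levels in single embryos, as log2(CPM + 0.5) in internal reads, of the 6 genes besides Srf that passed an adjusted p of 0.05 in all 16 fits with 1 embryo left out. Points are embryos with their number, SRF-LOF left of control, and bars are the mean ± SD. SRF-LOF 3 and 8 lie among the control embryos for Oas1d, and the groups do not overlap for Pitpnm2, Alas1 and Srp19.

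Further genes rose in SRF-LOF embryos. Rgs2, a regulator of G protein signalling, stood at 51.2, 590, 238, 577, 267, 47.5 and 225 CPM in SRF-LOF embryos 3 to 9, against 16.9, 38.9 and 169 CPM (lowest, median, highest) in control embryos. Only SRF-LOF 3 and 8 were within the control range (2.17 ± 0.50, adjusted p = 0.024). Noto, a homeobox gene known from the notochord, stood at 12, 126, 46.3, 71.7, 109, 11.1 and 22.6 CPM against 4.53, 11 and 22.2 CPM, again with SRF-LOF 3 and 8 inside the control range (2.39 ± 0.56, adjusted p = 0.025). Neil3, a DNA glycosylase, was higher by 2.15 ± 0.49 with 5 of 7 SRF-LOF embryos above all control embryos, and Rraga, a Rag GTPase that signals amino acids to mTORC1, by 1.92 ± 0.39 with 4 of 7.

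Dennd6a (2.47 ± 0.50), Spag7 (2.27 ± 0.52), the aldose reductase gene Akr1b3 (2.22 ± 0.47), Dph6 of diphthamide synthesis (2.17 ± 0.59), the zinc finger gene Zfp334 (2.50 ± 0.55), the F-box gene Btrc (1.89 ± 0.38) and Banp, a nuclear protein gene (1.70 ± 0.34), also rose, at adjusted p-values of 0.017 to 0.048. Of these Btrc had 6 SRF-LOF embryos above all control embryos. Chst7, a sulfotransferase gene on the X chromosome, was higher in internal reads (2.45 ± 0.64, adjusted p = 0.043) and lower without passing the test in 5' reads (-1.01 ± 0.82, adjusted p = 0.44). The 5' value rested on 18 counts in SRF-LOF and 46 in control embryos, with control 9 highest at 23.4 CPM. The 5' medians were 2.63 CPM in SRF-LOF and 1.13 CPM in control embryos, so the direction of Chst7 in 5' reads is uncertain. Among genes with a clone or predicted-gene name or no coding annotation, those with the smallest p were 2700049A03Rik (1.15 ± 0.25, annotated as protein-coding), AC132910.1 (1.99 ± 0.44) and Gm36976 (3.07 ± 0.69). AC132910.1 is annotated as antisense, and whether the counting used strand is not given in the sources used here.

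Gene families seen among the calls after their values were known were counted over all their tested members, beside 1.16% of all genes that rose. Of 6 Oas1 genes 2 rose, Oas1d and Oas1h (1.90 ± 0.50), and 5 were positive. Of 15 Fbxw genes, grouped by name as oocyte F-box genes, 3 rose and 13 were positive. Those that rose were Fbxw27 (1.47 ± 0.31), Fbxw25 (1.53 ± 0.38) and Fbxw15 (1.02 ± 0.26), all on chromosome 9. Of 11 Cnot genes, named after the CCR4-NOT complex that removes polyA tails, 2 rose, Cnot3 and Cnot4. Members of the Oas1 and Fbxw families have close copies, so reads may be split between them.

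The largest falls were in genes at low levels that varied widely between control embryos. Hand1, a transcription factor of trophoblast and heart, had counts in 1 of 7 SRF-LOF embryos, at 0.85 CPM, and stood at 92.6, 20.3, 24.7 and 34.0 CPM in control embryos 1, 3, 5 and 6 and at 0 in the other 5. The groups overlapped at 0, and the 1 count of the SRF-LOF embryos against 247 of the control embryos passed the test (adjusted p = 0.021). Cst7, a cysteine protease inhibitor, stood at 0, 0 and 1.95 CPM (lowest, median, highest) in SRF-LOF embryos against 0, 8.82 and 82.8 CPM in control embryos (-4.94 ± 1.12, adjusted p = 0.022). Gprc5a, an orphan receptor gene, stood at 0, 0 and 4.56 CPM against 3.71, 20.4 and 110 CPM, with 5 SRF-LOF embryos below all control embryos (-4.35 ± 1.03, adjusted p = 0.025). Control 6 was among the 2 highest control embryos in all 3 genes.

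Ovol2, a zinc finger gene of epithelia (-3.21 ± 0.85), the beta-defensin gene Defb42 (-3.19 ± 0.84), Osbpl6 (-3.46 ± 0.78), the basement membrane gene Nid2 (-2.80 ± 0.71) and Pramel4 of the PRAME-like family (-2.75 ± 0.75) also fell, at adjusted p-values of 0.022 to 0.048. Of 29 tested genes whose names begin with Sec or Srp and a number, chosen after values were seen, 3 fell and 0 rose: Srp19, Sec23b of the COPII coat that buds vesicles from the endoplasmic reticulum (-2.11 ± 0.43, adjusted p = 0.017) and Sec61a2 of the translocon (-2.96 ± 0.79, adjusted p = 0.047). The median of the 29 was -0.09, close to that of all genes, of which 0.611% fell and 1.16% rose. Arfrp1, a GTPase of the Golgi (-2.99 ± 0.74), Hadhb of mitochondrial fatty acid oxidation (-2.05 ± 0.44), Sdcbp2 (-2.43 ± 0.54) and the ubiquitin ligase gene Peli1 (-1.87 ± 0.42) fell as well. The non-coding genes with the smallest p were 2700038G22Rik (-2.39 ± 0.53, 6 SRF-LOF embryos below all control embryos), the antisense gene Gt(ROSA)26Sor (-2.0 ± 0.50) and Gm29247 (-1.52 ± 0.40).

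Of 37 tested actin cytoskeleton targets of SRF 1 rose and 1 fell, where 1.16% of all genes rose and 0.611% fell. The median log2 difference of the list was 0.06 in internal reads, beside -0.10 over all genes. In 5' reads, where 1 of 38 rose and 0 fell, it was -0.10, beside -0.06 over all genes. With ERCC scaling of internal reads it was -0.33, beside -0.45 over all genes. Per embryo the mean of the list differed by -0.21 on the log2 scale, so mean and median differed in sign. Fermt2, kindlin-2 of integrin contacts, stood at 62.3, 214, 139, 174, 177, 56.7 and 131 CPM in SRF-LOF embryos 3 to 9, against 33.8, 56.8 and 82.8 CPM (lowest, median, highest) in control embryos. SRF-LOF 3 and 8 were inside the control range and the other 5 above it (1.24 ± 0.27, adjusted p = 0.021). Leaving out SRF-LOF 4, 6 or 7 ended the call (adjusted p at most 0.086). Myh10, a non-muscle myosin heavy chain gene, stood at 0.85, 11.7 and 34.2 CPM against 15.2, 30.5 and 106 CPM, with 5 SRF-LOF embryos below all control embryos (-1.70 ± 0.46, adjusted p = 0.047). Without 1 embryo its call held in 5 of 16 fits. The actin genes Actb and Actg1 differed by 0.17 ± 0.33 and -0.19 ± 0.40, both within the spread (adjusted p = 0.76 and 0.78).

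Of 20 tested immediate early targets 0 rose and 1 fell (0.611% of all genes fell), 17 were negative and the median was -0.82, beside -0.10 over all genes. Mcl1, an anti-apoptotic BCL2 family gene, stood at 35.9, 6.78, 2.65, 4.16, 4.69, 24.7 and 12.8 CPM in SRF-LOF embryos 3 to 9, against 17.3, 38.7 and 72.0 CPM (lowest, median, highest) in control embryos. SRF-LOF 3 and 8 were inside the control range and the others below it (-1.62 ± 0.44, adjusted p = 0.048), and the call held in 4 of 16 fits without 1 embryo. The matricellular gene Ccn1 (-3.52 ± 1.19, adjusted p = 0.091), the phosphatase gene Dusp5 (-2.37 ± 0.76, adjusted p = 0.080) and Ier2 (-1.32 ± 0.60, adjusted p = 0.18) did not pass. The mean log2 level of the list differed by -0.91, with 5 of 7 below all control embryos and SRF-LOF 3 and 8 above the control mean. Among 7 tested genes of SRF and its cofactors the median was 0.34. With ERCC scaling it was -0.01, beside -0.45 over all genes. Srf was called, and Mrtfa, Mrtfb, Elk1 and Elk4 differed by -0.24 to 0.39 and did not pass (adjusted p = 0.36 to 0.82).

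Promoters were searched for the CArG box, the element SRF binds, in RefSeq windows from 250 bases before to 50 bases after the start of transcription (GRCm38.p6), reading both strands. A gene was counted if any of its windows held the box. The box was found in 1.81% of 27025 genes with a promoter and in 135 of the 8675 tested genes with a promoter (1.56%). It was found in 3 of 107 higher genes (2.8%) and in 5 of 62 lower genes (8.06%), and in 9 of 44 actin targets (20.5%) and 3 of 25 immediate early targets (12%). These shares are a description, and a match in a window is not evidence that SRF binds there. The higher genes with a box were Srf, Fermt2 and Tcf7, and the lower genes Rnf128, Mknk2, Pramel4, Irf3 and Ldha. Injected and embryonic Srf RNA were not separated, so the call of Srf is not a measure of its promoter. The boxes upstream of the start in called genes are shown with 1 box each of 3 targets that were not called, on the strand of the gene, with the box in capitals.
Srf, chr17:46556220-46556259, minus strand: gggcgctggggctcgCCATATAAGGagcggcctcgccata
Srf, chr17:46556200-46556239, minus strand: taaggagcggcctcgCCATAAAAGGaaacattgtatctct
Fermt2, chr14:45530245-45530284, minus strand: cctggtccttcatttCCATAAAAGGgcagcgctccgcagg
Tcf7, chr11:52282596-52282620, minus strand: cttccggtgccctgaCCTTTATAGG
Mknk2, chr10:80676301-80676340, minus strand: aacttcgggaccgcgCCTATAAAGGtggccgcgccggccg
Pramel4, chr4:144059078-144059117, plus strand: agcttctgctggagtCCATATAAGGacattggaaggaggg
Rnf128, chrX:139610388-139610427, plus strand: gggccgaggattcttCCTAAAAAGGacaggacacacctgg
Actg1, chr11:120348561-120348600, minus strand: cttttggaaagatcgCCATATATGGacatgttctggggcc
Dusp5, chr19:53529058-53529097, plus strand: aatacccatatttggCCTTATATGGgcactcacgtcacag
Zfp36, chr7:28379262-28379301, minus strand: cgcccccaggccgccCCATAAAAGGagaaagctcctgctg

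Genes that carry such a box thus moved in both directions or not past the threshold. Beside Fermt2, the transcription factor gene Tcf7 rose (1.34 ± 0.36, adjusted p = 0.047) with 5 SRF-LOF embryos above all control embryos, but in 5' reads it did not pass (0.76, adjusted p = 0.22). Mknk2, a kinase gene of the MAP kinase pathway, fell (-1.30 ± 0.35, adjusted p = 0.047) with 5 SRF-LOF embryos below all control embryos. Rnf128, a ubiquitin ligase gene, had 0 counts in the SRF-LOF embryos and 136 in the control embryos, at least 33.1-fold lower on 3 counts over the group, with some control embryos also at 0. Zfp36, an immediate early RNA-binding protein gene, was at -1.5 ± 0.64 (adjusted p = 0.16), the actin-binding gene Cnn2 at -1.06 ± 0.61 (adjusted p = 0.27) and Myl6, a myosin light chain gene, at -0.75 ± 0.32 (adjusted p = 0.16).

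Some RNAs stored in the oocyte rose in SRF-LOF embryos. Of 74 tested maternal oocyte genes 5 rose and 0 fell, beside 1.16% and 0.611% of all genes, and 65 were positive, with a median log2 difference of 0.52. The median was 0.17 with ERCC scaling, where that of all genes was -0.45, and -0.03 with scaling to this list, which sets its own level. Summed levels were 60004 to 151740 CPM in SRF-LOF embryos and 35684 to 109240 CPM in control embryos. The mean log2 level of the list was above all control embryos in SRF-LOF 4, 5, 6, 7 and 9, and SRF-LOF 3 and 8 were within the control range. The genes that rose were Oas1d, Oog4 (1.82 ± 0.46), Rfpl4 (1.66 ± 0.42), Fbxw15 and Accsl (0.97 ± 0.25, adjusted p = 0.045). Oog4, a PRAME-like oocyte gene, stood at 20.5, 418, 339, 362, 342, 61.9 and 89.6 CPM in SRF-LOF embryos 3 to 9, against 21.8, 56.8 and 147 CPM (lowest, median, highest) in control embryos. SRF-LOF 3 was the lowest of all 16 embryos and 4 SRF-LOF embryos were above all control embryos. Ooep of the subcortical maternal complex (1.69 ± 0.48, adjusted p = 0.052) and Nlrp4a (1.45 ± 0.41, adjusted p = 0.052) just missed the threshold. The oocyte growth factor genes Gdf9 (0.67 ± 0.30) and Bmp15 (0.85 ± 0.39) did not pass (adjusted p = 0.18 each). Of the 74 genes of the list, 9 were negative. The zona pellucida gene Zp3 was lower without passing (-0.89 ± 0.42, adjusted p = 0.20), with 5 SRF-LOF embryos below all control embryos.

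Of 33 genes of maternal mRNA decay 2 rose and 0 fell, beside 1.16% and 0.611% of all genes, at a median of 0.08. Cnot3, a subunit of the deadenylase complex, stood at 72.6, 263, 197, 285, 238, 69.0 and 184 CPM in SRF-LOF embryos 3 to 9, against 35.2, 79.0 and 137 CPM (lowest, median, highest) in control embryos (1.20 ± 0.28, adjusted p = 0.025). Pabpc1l, the embryonic polyA-binding protein of oocytes, stood at 27.3, 208 and 364 CPM in SRF-LOF embryos against 7.35, 43.0 and 151 CPM in control embryos (1.85 ± 0.47, adjusted p = 0.039). With ERCC scaling the median of the list was -0.25, beside -0.45 over all genes. In both genes SRF-LOF 3 and 8 were inside the control range and the other 5 above it. Of 8 Obox genes, homeobox genes of the oocyte and early embryo with close copies, 2 rose and 0 fell, Obox1 (1.68 ± 0.40, adjusted p = 0.029) and Obox2 (1.91 ± 0.41, adjusted p = 0.021), while 5 were negative and the median was -0.73.

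Of 46 DUX-linked 2-cell genes 0 rose and 0 fell, beside 1.78% of all genes called in either direction. Their median was 0.20. It was -0.02 with ERCC and -0.20 with maternal-list scaling, beside -0.45 and -0.66 over all genes. Summed levels of 4876 to 15356 CPM in SRF-LOF embryos lay within 2667 to 18745 CPM in control embryos. Tcstv1, a gene of 2-cell-like cells, stood at 94.8, 340 and 481 CPM (lowest, median, highest) in SRF-LOF embryos against 39.7, 127 and 219 CPM in control embryos, with 5 SRF-LOF embryos above all control embryos (1.37 ± 0.44, adjusted p = 0.077). Sp110 (0.86 ± 0.31, adjusted p = 0.11) and Zscan4c (1.03 ± 0.69, adjusted p = 0.34) did not pass either, and the Dux gene Duxf3 differed by 0.87 ± 0.83 (adjusted p = 0.50). Of 29 regulators of zygotic genome activation 1 rose and 0 fell, with 17 negative at a median of -0.35. The 1 that rose was Zfp57, a KRAB zinc finger gene that protects imprints, at 177, 1106 and 2280 CPM in SRF-LOF embryos against 157, 283 and 801 CPM in control embryos (1.58 ± 0.37, adjusted p = 0.025). Of 26 preimplantation transcription factor genes 0 rose and 1 fell, Hand1, with 19 negative at a median of -1.02. Among them Klf17 was at 0.75 ± 0.21 (adjusted p = 0.052), Pou5f1 at 0.90 ± 0.33 (adjusted p = 0.12) and Klf4 at -1.12 ± 0.44 (adjusted p = 0.13).

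Of 78 ribosomal protein genes 76 were negative, at a median of -0.80, and 0 passed, beside 1.78% of all genes. Their mean log2 level per embryo was 6.80, 4.23, 5.57, 4.55, 4.78, 6.79 and 5.36 in SRF-LOF embryos 3 to 9, against 5.02, 6.42 and 7.30 (lowest, median, highest) in control embryos. SRF-LOF 4, 6 and 7 were below all control embryos, SRF-LOF 3 and 8 were above the control median, and control 2 was the lowest control embryo. Rps26 stood at 8.31, 63.5 and 177 CPM in SRF-LOF embryos against 92.9, 227 and 376 CPM in control embryos (-1.53 ± 0.47, adjusted p = 0.069). Ribosomal protein genes have many processed pseudogenes, with which reads may be shared.

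Of 60 ribosome biogenesis genes 54 were negative at -0.80 and 0 passed, with the nucleolar genes Utp3 at -1.45 ± 0.41 (adjusted p = 0.052) and Nop56 at -0.94 ± 0.31 (adjusted p = 0.084). Of 39 translation factor genes 29 were negative at -0.46 and 0 passed, with Eif3g at -1.89 ± 0.56 and Eif3i at 0.59 ± 0.19. Of 27 RNA polymerase genes 24 were negative at -0.57 and 0 passed, with Polr2m at -1.89 ± 0.58 and Polr3e at -1.76 ± 0.58. Of 31 proteasome genes 22 were negative at -0.65 and 0 passed, with Psmb7 at -1.96 ± 0.62 and Psmd14 at -1.77 ± 0.64. Of 46 spliceosome genes 1 rose and 1 fell at -0.57: U2af2, a splice site recognition factor, at 16.2, 77.9 and 128 CPM in SRF-LOF embryos against 13.3, 25.5 and 43.3 CPM in control embryos (1.70 ± 0.39, adjusted p = 0.024), and Srsf7 at 61.0, 108 and 325 CPM against 156, 291 and 489 CPM (-1.08 ± 0.28, adjusted p = 0.046). Of 47 nuclear genes of oxidative phosphorylation 1 rose, Sdha of complex II (1.07 ± 0.28, adjusted p = 0.046), and 34 were negative at -0.54. With 1.16% of all genes higher and 0.611% lower, 1 call per direction in lists of 46 and 47 genes says little about them. Of 13 mitochondrial mRNAs 0 passed, at a median of 0.02, with mt-Co1 at 0.34 ± 0.27 and mt-Atp8 at -0.34 ± 0.33.

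**Figure D5:**
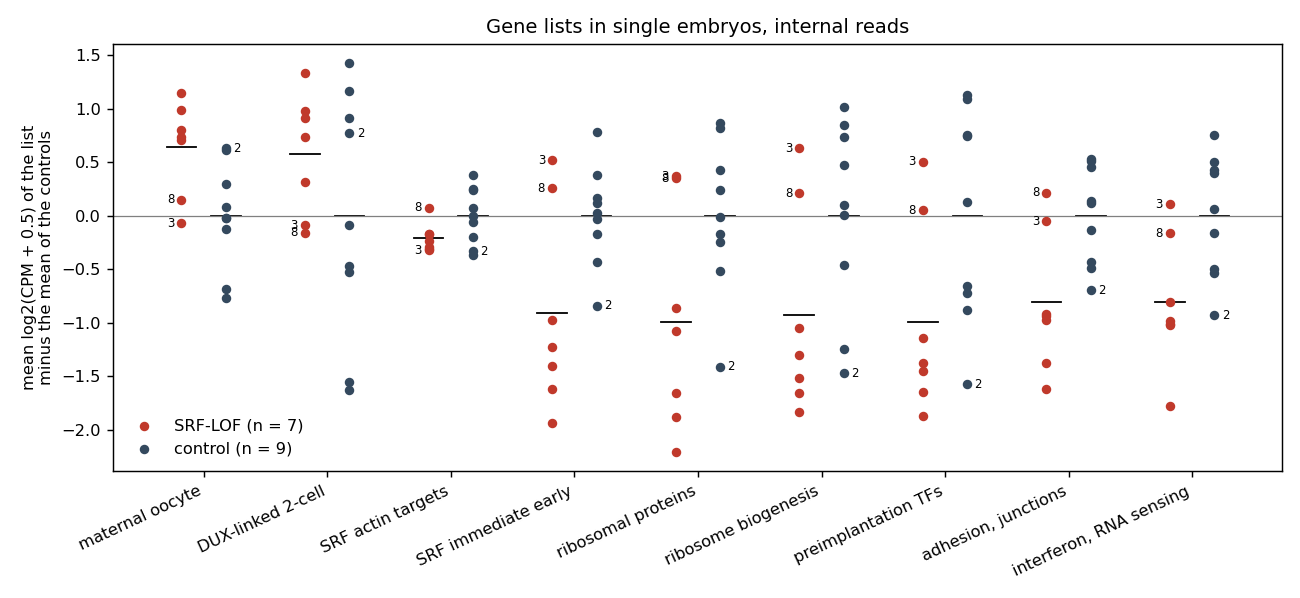
Mean log2(CPM + 0.5) of 9 gene lists in single embryos, internal reads, as the difference from the mean of the control embryos. Points are embryos, SRF-LOF left of control, black lines are group means, and SRF-LOF 3, SRF-LOF 8 and control 2 are numbered. In the ribosomal protein list SRF-LOF 3 and 8 lie above the control mean and control 2 is the lowest control embryo.

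With 1.78% of all genes called, a count of 0 in lists of 21 to 41 genes says little about them. Of 41 cell cycle genes 0 passed at a median of -0.16, with Ccnb1 at 0.64 ± 0.23 (adjusted p = 0.11) and Rb1 at -1.29 ± 0.44 (adjusted p = 0.094). Of 25 p53 targets 0 passed and 22 were negative at -0.75. Cdkn1a, the p21 inhibitor of cell division, stood at 109, 43.2, 18.5, 15.6, 29.3, 80.1 and 77.8 CPM in SRF-LOF embryos 3 to 9, against 12.4, 92.3 and 387 CPM (lowest, median, highest) in control embryos. All SRF-LOF embryos lay inside the wide control range, and the difference of -1.81 ± 0.50 just missed the threshold (adjusted p = 0.050), as did Ddb2 at 1.20 ± 0.35 (adjusted p = 0.058). Of 22 stress response genes 0 passed at -0.57, with the chaperone gene Hspa5 at -1.19 ± 0.35 (adjusted p = 0.062) and Gclm of glutathione synthesis at -1.44 ± 0.48, and of 21 heat shock genes 0 passed at -0.10, with Dnajb1 at 0.74 ± 0.32 and Hspa4l at 0.81 ± 0.37.

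Among all genes 1.16% rose and 0.611% fell, so 1 call in a list of 15 to 34 genes says little about that list. Of 15 interferon and RNA sensing genes 0 rose, 1 fell and 14 were negative, at -0.55. Irf3, a transcription factor of the interferon response, stood at 8.54, 1.70, 6.61, 1.04, 10.6, 7.82 and 0.99 CPM in SRF-LOF embryos 3 to 9, against 3.71, 31.3 and 47.6 CPM (lowest, median, highest) in control embryos. The SRF-LOF embryos overlapped control 2 and control 9 only (-2.44 ± 0.66, adjusted p = 0.047). Of 34 adhesion and junction genes 0 rose and 1 fell at -0.38, the integrin gene Itgav (-2.04 ± 0.56, adjusted p = 0.048), and 5 SRF-LOF embryos were below all control embryos in the mean of the list. The junction gene F11r was at -2.22 ± 0.69 (adjusted p = 0.070). Of 18 DNA methylation genes Zfp57 alone rose at a median of -0.12, and of 32 heterochromatin genes 1 rose at -0.07: Ezh2, the methyltransferase of Polycomb complex 2, at 422, 1087, 847, 1058, 1098, 326 and 874 CPM in SRF-LOF embryos 3 to 9, against 182, 272 and 723 CPM in control embryos (1.14 ± 0.29, adjusted p = 0.035). Of 17 imprinted genes 0 passed at -0.53, with Snrpn at -0.88 ± 0.33 and Jade1 at -1.39 ± 0.61.

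Repeats gave no call in internal reads: 0 of 628 subfamilies (0%) passed edgeR's quasi-likelihood test, 63 had an unadjusted p under 0.05, 11 higher (1.75%) and 52 lower (8.28%), and DESeq2 called 1. The MERVL promoter rows MT2_Mm and MT2-Mm_i to MT2-Mm_v differed by -0.28 to -0.07 with standard errors of 0.30 to 0.37. Their summed level was 9268, 6504, 6935, 3414, 6814, 6596 and 11748 CPM in SRF-LOF embryos 3 to 9, against 3814 to 15393 CPM in control embryos, so that all but 1 SRF-LOF embryo were inside the control range. The smallest p was that of RLTR4_Mm, an LTR of a gammaretrovirus-like family, at 2.35, 7.27 and 26.7 CPM (lowest, median, highest) in SRF-LOF embryos against 9.06, 34.5 and 67.9 CPM in control embryos (-1.71 ± 0.40, adjusted p = 0.088), but it was at -0.23 ± 0.32 in 5' reads. RLTR49 (-1.33 ± 0.38), RLTR13D5 (-1.24 ± 0.37), IAPLTR2a (-1.19 ± 0.37) and RLTR14 (-0.94 ± 0.29) did not pass (adjusted p = 0.23 each). Higher without passing were MER91A (1.5 ± 0.47), MYSERV6-int (1.03 ± 0.36), Lx3A (0.76 ± 0.23), MTB_Mm-int (0.69 ± 0.27) and RMER19A (0.62 ± 0.19).

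All 12 B2 SINE subfamilies were negative in internal reads, at a median of -1.13, as were 13 of 14 in 5' reads at -1.11, and none passed. B2_Mm2 stood at 797, 1574 and 2850 CPM (lowest, median, highest) in SRF-LOF embryos against 1925, 2488 and 6383 CPM in control embryos, with 5 SRF-LOF embryos below all control embryos (-0.79 ± 0.33, adjusted p = 0.43). B2mm1a_iv was below every control embryo in every SRF-LOF embryo, at 4.27 to 11.4 CPM against 11.8 to 56.8 CPM (-1.61 ± 0.66, adjusted p = 0.43), the only repeat of 628 (0.159%) without overlap. All 15 tested Alu-type B1 and related subfamilies were negative as well, at -0.43. The fixed repeat lists had medians of -0.12 for MERVL and MT2, -0.50 for older ERVL, 0.00 for MaLR, -0.10 for IAP, -0.11 for other ERVK, 0.05 for LINE-1, -0.37 for SINE and -0.12 for satellites, and 0 members of any of them passed. Subfamilies share reads, so single rows are uncertain.

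The 5' reads of the same libraries called 253 of 11749 genes (2.15%), 162 higher (1.38%) and 91 lower (0.775%). Every SRF-LOF embryo was above every control embryo in 6 of all 11749 genes (0.0511%) and below in 4 (0.034%). The 5' reads come from the same embryos and are not an independent replicate. Of the 139 genes higher in internal reads 133 were tested in 5' reads, 132 had the same sign and 88 were called higher, and of the 73 lower genes 67 were tested, 67 had the same sign and 34 were called lower. No gene was called in opposite directions. Genes with the smallest p in 5' reads that are not described above included Acbd3, a Golgi protein gene, which rose in 5' reads (1.61 ± 0.31, adjusted p = 0.017) and did not pass in internal reads (0.76 ± 0.33, adjusted p = 0.16). Rabggtb, a subunit of the enzyme that prenylates Rab GTPases, fell in 5' reads with every SRF-LOF embryo below every control embryo (-2.17 ± 0.44, adjusted p = 0.021), against -1.76 ± 0.56 in internal reads (adjusted p = 0.079). Slc31a1, a copper transporter gene (-1.44 ± 0.31 in 5' reads), and Pcyt1a of phosphatidylcholine synthesis (-1.48 ± 0.32) fell in both read classes. Of 626 repeats 1 was called in 5' reads (0.16%), the LTR MT2C_vii, at 16.5, 88.1 and 293 CPM (lowest, median, highest) in SRF-LOF embryos against 222, 648 and 1102 CPM in control embryos (-2.42 ± 0.49, adjusted p = 0.0086). Before adjustment 94 repeats had a p under 0.05, with 38 higher (6.07%) and 56 lower (8.95%). MT2C_vii was lower in internal reads without passing (-1.04 ± 0.43, adjusted p = 0.43).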

How the data were processed

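Single late 2-cell embryos were profiled by Smart-seq+5' with polyA RNA, as paired reads of 150 bases, per the labels. The internal-read files hold whole-number counts per gene, repeat subfamily and ERCC spike-in as deposited. The 5' files hold whole numbers as deposited, which were handled as estimated counts; rounding changed none. STAR 2.7.11a and GRCm38 are named in the submitters' processing notes, and the counter, its use of strand and its treatment of reads with several positions are not given in the sources used here. Of 54838 gene identifiers 54809 were named through the annotation. No count column was left unused.

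Genes and repeats were fitted together with edgeR 4.0.16 (R 4.3.3, limma 3.58.1) as 4 groups over 35 embryos, with TMM factors from gene rows, filterByExpr and the quasi-likelihood test. Benjamini-Hochberg adjustment was done over all tested genes and over all tested repeats, at 0.05. CPM are scaled to the gene total of each library multiplied by its TMM factor, and log2 levels add 0.5 CPM. Promoters came from RefSeq (GRCm38.p6). Named genes were the 10 largest changes per direction above a mean level of 10 CPM, the 6 with the smallest p and 3 predicted, clone-named or non-coding ones per direction, the leading list members, and genes called after every omission of 1 embryo. A gene that this rule names is not reported here. Others were chosen after their values were seen, and the members and lists were chosen with earlier results of these data known. On simulated counts of 11483 genes for this comparison the fit recovered 7.69%, 54.5% and 89.4% of genes changed by 1, 2 and 3 on the log2 scale, with 5 false calls. The simulation drew each gene independently, without the axis that the real embryos share. Its recovery and false calls therefore do not describe the fit of the real counts. Alternatives were DESeq2 1.42.0 and its size factors, no count filter, only the SRF-LOF and control embryos, a replicate block, ERCC and maternal-list scaling, omission of 1 shallow library, omission of each embryo and the 5' reads. Intervals of count ratios are exact 95% intervals and, like the floor of 3 counts, cover counting error only. Other tools were Python 3.11.15, numpy 2.4.6, pandas 2.3.3, scipy 1.17.1 and matplotlib 3.10.9.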

Additional observations from a re-analysis of the deposited data

Results flagged for a closer look

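Of 214 groups of values for named genes and repeats, 8 (3.74%) held an embryo far from the rest of its group, where chance gives about 1 in 20. Control 2 stood at 63.0 CPM for Dennd6a, with 7.82 to 20.8 CPM in the other control embryos, and at 183 CPM for Dnajc11, with 46.6 to 92.9 CPM in the others. Control 2 also had 0 CPM of the haemoglobin gene Hba-a1, with 8.90 to 144 CPM in the others. Control 10 had 0 CPM of Chst7, with 2.65 to 11.1 CPM in the others. Control 5 stood at 140 CPM for 2700049A03Rik, with 69.1 to 90.2 CPM in the others. Control 8 stood at 4.63 CPM for Peli1, with 23.8 to 111 CPM in the others. SRF-LOF 3 held 0.854 CPM of Hand1, which was at 0 in the other SRF-LOF embryos. SRF-LOF 7 stood at 2.35 CPM for Hadhb, with 12.8 to 39.1 CPM in the others.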

How the results depend on the processing

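Internal reads gave 881 called genes with DESeq2, 123 with no count filter, 1 with only the SRF-LOF and control embryos or with ERCC scaling and 21 with maternal-list scaling, against 212, and 8 to 1789 with 1 embryo left out. In 5' reads the counts were 964, 138, 1, 1 and 33, against 253, and 1 to 1684. With a replicate block 3 genes were called in internal reads and 1 in 5' reads, and 0 repeats in 5' reads. The 6 same-number pairs correlated at -0.26 to 0.51, 2 of them over 0.1, and 0 embryos correlated best with their own number. So few pairs cannot decide whether embryos of the same number share a litter, day or batch, which the labels do not give. On the second principal component (8.33% of the variance) control 8, 9 and 10 stood at -60.4, -68.2 and -78.1. SRF-LOF 8 and 9 stood there at -24.5 and -11.6 and control 2 at -22.0, and all other embryos were positive. The cause of this order was not tested. Called repeats numbered 1 in internal reads with DESeq2, with maternal-list scaling or in 5' reads, against 0, and 0 to 1 with 1 embryo left out; in 5' reads they numbered 6 with DESeq2 and 12 with maternal-list scaling, against 1, and 1 to 2 with 1 embryo left out. Of 58 named called genes, 57 kept their call with DESeq2 size factors, 58 with DESeq2, 46 with no count filter, 53 without the shallow library, 12 with maternal-list scaling, 3 with the block and 1 with ERCC scaling; the cause was not tested. Signs turned for Chst7 in 5' reads (-1.01), for Eif3i (-0.000508), mt-Co1 (-0.16) and Ccnb1 (-0.00955) with maternal-list scaling, and for Tnfaip6 with that scaling (-0.17), with the replicate block (-0.11) and without SRF-LOF 3 (-1.86; all omissions -1.86 to 1.05). None of the MERVL results was called, and signs turned for MERVL-int without SRF-LOF 5 (0.027) or control 8 (0.054; all omissions -0.29 to 0.054) and in 5' reads (0.047); for MT2_Mm with the block (0.055) and without SRF-LOF 6 (0.048), SRF-LOF 8 (0.020) or control 8 (0.16; all -0.28 to 0.16); for MT2-Mm_i without SRF-LOF 6, SRF-LOF 8, control 2, control 8 or control 10 (all -0.33 to 0.082) and in 5' reads (0.041); for MT2-Mm_ii without control 8 (0.013; all -0.26 to 0.013) and in 5' reads (0.0095); for MT2-Mm_iii without control 8 (0.089; all -0.21 to 0.089); and for MT2-Mm_iv in 5' reads (0.049). Over all genes the median was -0.45 with ERCC and -0.66 with maternal-list scaling, and over all repeats -0.40 and -0.60. List medians with ERCC scaling were -0.013 for SRF and cofactors, -0.33 for actin targets, -0.25 for mRNA decay, -0.78 for genome activation and -0.55 for DNA methylation. They were -0.41 for heterochromatin, -0.26 for MaLR, -0.47 for other ERVK and -0.59 for satellites. With maternal-list scaling they were -0.17, -0.64, -0.47, -0.95, -0.72, -0.67, -0.48, -0.64 and -0.73 for the same lists, and -0.027 for maternal oocyte genes, -1.08 for translation, -1.13 for spliceosome, -1.20 for oxidative phosphorylation, -0.52 for mitochondrial mRNAs, -0.72 for cell cycle, -1.16 for stress, -0.68 for heat shock, -1.11 for imprinted genes, -0.95 for older ERVL, -0.59 for IAP and -0.85 for SINE. In 5' reads they were -0.10 for actin targets, 0.14 for mRNA decay, -0.18 for imprinted genes, -0.067 for older ERVL, 0.26 for MaLR and 0.14 for other ERVK. The mRNA decay median was 0.036 with DESeq2 size factors, 0.039 with DESeq2, 0.15 with only the SRF-LOF and control embryos and 0.039 to 0.18 with 1 embryo left out, the actin median -0.10 to 0.16 with 1 embryo left out, and the imprinted median -0.15 with only these embryos and -0.20 with the block.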
